A study of Homo sapiens with 25 samples.

Results

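The 32 genes described here encode the SR splicing factors SRSF1 to SRSF12 (12 genes) and the heterogeneous nuclear ribonucleoproteins, or hnRNPs (20 genes). They were taken by name from a table of 36755 gene rows, which held all 32 of them, and all 32 passed the filter on low values. RNA was sequenced from Jurkat cells, an established human T-cell leukaemia line, in 25 libraries. The cells were cultured with medium that held all or a fraction of the usual histidine, which human cells cannot make for themselves. The groups on day 6 were 12.5% histidine (2 libraries) and 25%, 50% and 100% (3 libraries each). The groups on day 3 were 0%, 12.5%, 25% and 50% histidine (3 libraries each) and 100% (2 libraries, replicates 1 and 3). Jurkat is 1 clonal line, the labels name no genetic change or drug in any group, and they do not say that the replicates were separate cultures. The p-values thus measure only how far these libraries spread, and that spread may be technical.

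SR proteins carry RNA-recognition motifs and a domain rich in arginine and serine, bind exonic enhancers in pre-mRNA and help the spliceosome to choose exons. Kinases of the SRPK and CLK families phosphorylate that domain and so govern where the proteins sit in the nucleus and when they act. The hnRNPs coat nascent transcripts, often oppose SR proteins at exons, and also act in the stability, export and translation of mRNA. Many genes of both families control their own mRNA through alternative exons that expose it to decay. The values here are summed per gene and do not separate such isoforms.

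Values are normalized counts, that is, gene counts already divided by the authors' scaling factors, and they are compared between groups for 1 gene at a time, not between genes. A log2 fold change is on the scale log2(normalized count + 1), has a standard error (SE) from a limma model with a mean for each of the 9 groups, and is called at a Benjamini-Hochberg adjusted p under 0.05 over 22994 tested genes. In bulk RNA, fewer cells that use a gene and less of its RNA per cell cannot be told apart.

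The 25 libraries summed to between 18.44 and 21.38 mega-counts, and the 32 genes made up between 1.11% and 1.42% of that. All 13 T-lineage markers stood at 10 or more in every library, and their summed level moved with histidine. It was 65770 to 65940 normalized counts at 12.5%, 63820 to 67070 at 25%, 61560 to 63970 at 50% and 58290 to 59590 at 100% on day 6, and 92010 to 96990 at 0%, 75270 to 78030 at 12.5%, 70680 to 74830 at 25%, 65950 to 66450 at 50% and 61390 to 67600 at 100% on day 3. Markers of other cells were also present. The 5 B-cell markers, of which 1 stood under 10 in every library, summed to 340.1 to 396.4 at 12.5%, 321.7 to 373.5 at 25%, 290.7 to 305.9 at 50% and 274.1 to 302.6 at 100% on day 6. On day 3 they summed to 606.2 to 667.5 at 0%, 643.6 to 651.2 at 12.5%, 565 to 681.4 at 25%, 227.6 to 261.3 at 50% and 219.9 to 272.5 at 100%, so that on both days every library at 25% or below lay above those at 50% and 100%. The sum of 5 erythroid genes ranged from 191.4 to 5042 normalized counts, and within the day 3 groups it was 417 to 4933 at 0%, 191.4 to 3832 at 12.5%, 221.6 to 360.2 at 25%, 3528 to 5042 at 50% and 280.4 to 519.9 at 100%. The 6 fibroblast and matrix genes summed to 1733 to 12260. The 5 heart muscle genes summed to 40210 in replicate 2 of the day 6 25% group, and to no more than 129.2 in the libraries of the other groups. The 6 myeloid markers summed to 154.4 to 379.8 and the 5 epithelial markers to 206 to 442.4. The part of these transcripts in the results below was not tested. The library with heart transcripts was the highest of its 3 libraries for 24 of the 32 genes. The same count over all tested genes was not made, so this cannot be read as a trait of the members. Without the library with heart transcripts, 19 of the 21 members called at 25% on day 6 were still called, and the calls of HNRNPH3 and SRSF4 were lost.

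Upstream sequence is shown for the 6 genes that were called higher at both 12.5% and 25% histidine on both days. Of all 22994 tested genes, 4.21% were called higher in all 4 of these comparisons and 3.87% lower, and the members' share was not tested against this. The 6 genes were chosen by these calls and did not all move alike at 0% histidine. There SRSF10 and HNRNPD were not called, while HNRNPK, HNRNPL, HNRNPUL1 and HNRNPUL2 were called higher. Each sequence is the 250 bases before a RefSeq transcript start (GRCh38.p14), for the start nearest to that of GENCODE 29 where several exist. Capitals mark CACGTG, the E-box bound by MYC, or CCAAT, the box bound by NF-Y, which reads ATTGG on the other strand. The windows were SRSF10 at chr1:23980328-23980577 (minus strand), HNRNPK at chr9:83980616-83980865 (minus strand), HNRNPD at chr4:82373992-82374241 (minus strand), HNRNPL at chr19:38852348-38852597 (minus strand), HNRNPUL1 at chr19:41262307-41262556 (plus strand) and HNRNPUL2 at chr11:62727458-62727707 (minus strand).
SRSF10: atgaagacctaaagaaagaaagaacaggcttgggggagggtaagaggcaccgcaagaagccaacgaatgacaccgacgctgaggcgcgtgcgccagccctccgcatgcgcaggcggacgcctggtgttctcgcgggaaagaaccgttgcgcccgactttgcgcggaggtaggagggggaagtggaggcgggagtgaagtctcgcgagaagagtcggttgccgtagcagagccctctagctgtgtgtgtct
HNRNPK: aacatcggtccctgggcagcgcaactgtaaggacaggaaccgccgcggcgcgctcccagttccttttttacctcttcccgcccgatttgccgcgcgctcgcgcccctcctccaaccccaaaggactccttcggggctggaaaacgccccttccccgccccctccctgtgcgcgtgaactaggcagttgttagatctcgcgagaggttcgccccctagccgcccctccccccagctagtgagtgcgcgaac
HNRNPD: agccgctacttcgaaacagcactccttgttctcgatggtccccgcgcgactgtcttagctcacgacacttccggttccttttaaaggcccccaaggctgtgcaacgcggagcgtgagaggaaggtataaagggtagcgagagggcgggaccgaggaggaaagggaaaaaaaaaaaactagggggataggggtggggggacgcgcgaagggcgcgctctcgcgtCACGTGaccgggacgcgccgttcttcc
HNRNPL: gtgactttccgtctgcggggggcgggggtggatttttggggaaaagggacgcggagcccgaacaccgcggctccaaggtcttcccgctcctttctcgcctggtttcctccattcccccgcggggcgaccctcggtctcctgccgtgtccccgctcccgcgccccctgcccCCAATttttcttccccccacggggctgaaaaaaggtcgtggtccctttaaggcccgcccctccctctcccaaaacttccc
HNRNPUL1: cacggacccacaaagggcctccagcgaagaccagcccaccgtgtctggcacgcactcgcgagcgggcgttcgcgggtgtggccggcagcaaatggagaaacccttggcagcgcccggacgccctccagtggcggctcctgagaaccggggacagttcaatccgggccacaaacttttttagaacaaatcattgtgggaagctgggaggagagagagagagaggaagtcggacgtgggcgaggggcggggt
HNRNPUL2: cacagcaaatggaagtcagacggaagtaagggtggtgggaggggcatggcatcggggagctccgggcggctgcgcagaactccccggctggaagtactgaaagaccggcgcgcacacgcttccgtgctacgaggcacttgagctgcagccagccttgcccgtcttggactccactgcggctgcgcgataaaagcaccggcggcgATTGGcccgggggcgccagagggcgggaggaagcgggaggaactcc

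The E-box of HNRNPD began at base -27 from the start, the CCAAT box of HNRNPL at -80 and that of HNRNPUL2 at -46, and the windows of SRSF10, HNRNPK and HNRNPUL1 held neither, although windows at other starts of HNRNPK and HNRNPUL1 held CCAAT. The promoter table had an entry for 30 of the 32 genes, and SRSF2 and HNRNPA1 were not matched. Over both strands of the 250 bases before each start, CACGTG was found in 15.9% of the 44 promoters of these 30 genes and in 6.32% of all 34941 promoters. The genes with at least 1 such promoter were 6 of the 30 (HNRNPA3, HNRNPD, HNRNPDL, HNRNPH2, HNRNPH3 and HNRNPM). CCAAT was found in 47.7% of the members' promoters, in at least 1 promoter of 18 of the 30, and in 32% of all promoters. The element TGATGNAA, which ATF4 and CHOP share, was found in 0 of the 44 promoters and in 3.15% of all promoters. None of these motifs contains another. Promoters of 1 gene can overlap. The members' CACGTG share rests on 7 promoters. All promoters were taken whatever the level of their gene, and no gap between the shares was tested. A match describes letters in a window and says nothing of a factor's binding.

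At 25% histidine or below, most of the 32 genes differed from full histidine, in both directions. At 50% histidine no member was called. On day 6, 16 members rose and 2 fell at 12.5% histidine, where 21.9% of all tested genes were called (10.8% higher, 11.1% lower), and 18 rose and 3 fell at 25%, where 20.2% of all tested genes were called (11% higher, 9.24% lower). On day 3, 12 rose and 8 fell at 0% (31% of all tested genes called, 14.8% higher and 16.1% lower), 18 rose and 5 fell at 12.5% (26.2% called, 14.2% higher and 12% lower) and 10 rose and 9 fell at 25% (19.5% called, 9.81% higher and 9.72% lower), each against the 100% libraries of the same day. These comparisons share their 100% libraries within a day, so their counts are not independent.

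The share of members called, 56.2% to 71.9% in those 5 comparisons, has to be read against genes of similar level. All members but SRSF12 averaged at least 1000 normalized counts, and of the 4892 genes at that level 48.3% were called at 12.5% and 47.1% at 25% on day 6, and 58.3% at 0%, 55% at 12.5% and 44.1% at 25% on day 3. In those 5 comparisons, in the same order, 31.2%, 31.3%, 35.1%, 36.3% and 22.8% of these genes were called higher and 17.2%, 15.8%, 23.2%, 18.6% and 21.3% lower. The members' median log2 fold change was 0.23 at 12.5% and 0.20 at 25% on day 6, and 0.08 at 0%, 0.28 at 12.5% and -0.01 at 25% on day 3, where the median of all tested genes lay between -0.04 and 0.00. At 50% histidine 0 of the 32 had an unadjusted p under 0.05 on either day, and 0.00435% of all tested genes were called on day 6 and 0% on day 3.

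**Figure D1:**
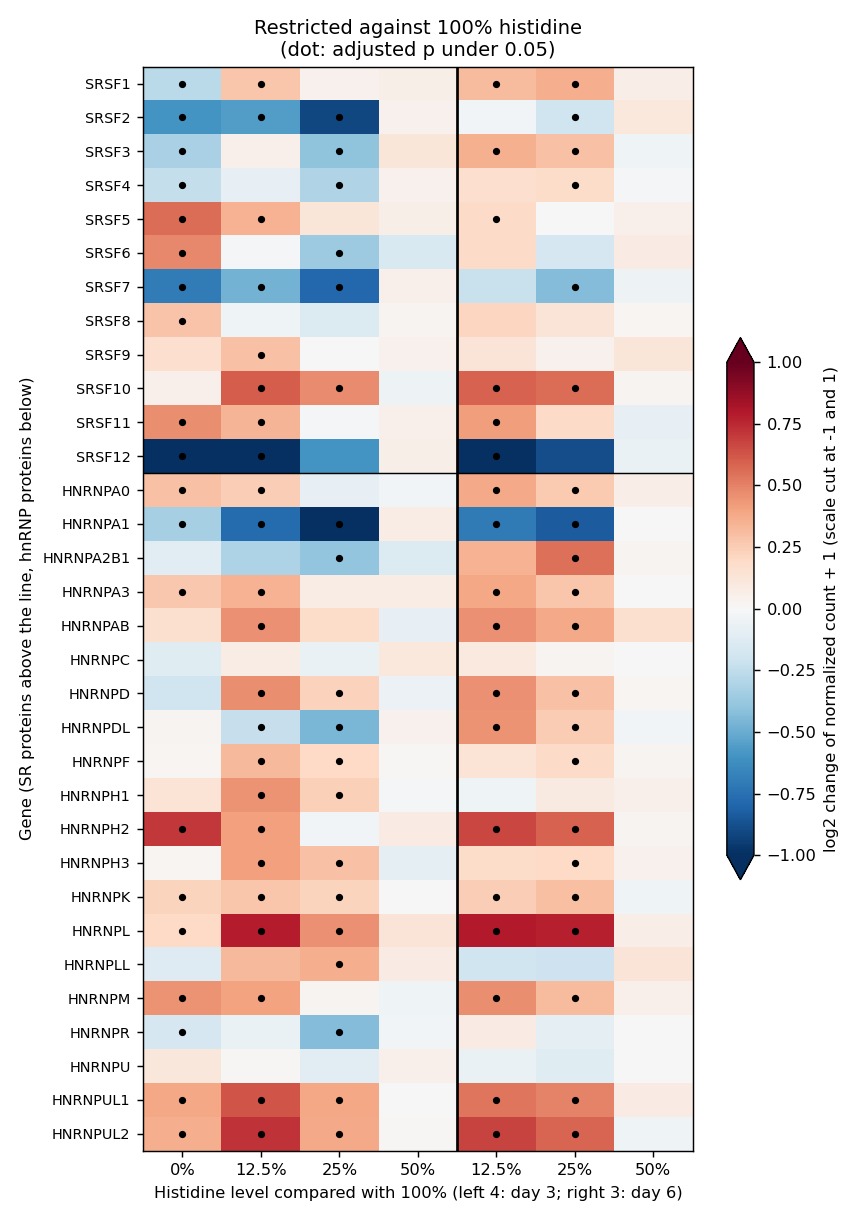
Log2 fold change of each of the 32 genes (rows, SR genes and hnRNP genes) in each comparison of a histidine level with 100% on the same day (columns), by colour, with called genes marked. HNRNPA1 is low and HNRNPL, HNRNPUL1, HNRNPUL2 and SRSF10 are high at 12.5% and 25% on both days, and the 50% columns are near 0.

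By family, of the 20 hnRNP genes, 11 rose and 1 fell at 12.5% and 14 rose and 1 fell at 25% on day 6, and 8 rose and 2 fell at 0%, 13 rose and 2 fell at 12.5% and 9 rose and 4 fell at 25% on day 3. Of the 12 SR genes, 5 rose and 1 fell at 12.5% and 4 rose and 2 fell at 25% on day 6, and 4 rose and 6 fell at 0%, 5 rose and 3 fell at 12.5% and 1 rose and 5 fell at 25% on day 3. The share called was 60% of the hnRNP genes and 50% of the SR genes at 12.5%, and 75% and 50% at 25%, on day 6. In the same order on day 3, it was 50% and 83.3% at 0%, 75% and 66.7% at 12.5%, and 65% and 50% at 25%. Of genes averaging at least 1000 normalized counts, 48.3% and 47.1% were called on day 6, and 58.3%, 55% and 44.1% on day 3. The hnRNP share at 0% was thus below that of such genes. The difference between the families was not tested. Summed over its genes, the SR family held 0.22% to 0.225% of all counts at 12.5%, 0.201% to 0.21% at 25% and 0.191% to 0.193% at 100% on day 6. On day 3 its share was 0.224% to 0.229% at 0%, 0.237% to 0.247% at 12.5%, 0.211% to 0.213% at 25% and 0.23% to 0.231% at 100%. Within these sums, single genes moved in opposite directions.

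Among the SR genes, SRSF2 and SRSF7 fell. SRSF2 (chr17:76734115-76737374, minus strand, coordinates of GENCODE 29 on GRCh38 throughout) encodes an SR protein that stays in the nucleus and recognises exonic enhancers. The day 6 libraries stood at 3508 and 3229 normalized counts at 12.5%, at 3003, 3177 and 2799 at 25%, at 3354, 3941 and 3808 at 50% and at 3425, 3604 and 3249 at 100%. The day 3 libraries stood at 4103, 3987 and 4141 at 0%, at 4120, 4278 and 4182 at 12.5%, at 3187, 3234 and 3440 at 25%, at 6729, 6403 and 5948 at 50% and at 6095 and 6236 at 100%. Every day 3 library at 25% or below thus lay under every day 3 library at 50% or 100%, with 25% the lowest level. Its log2 fold change on day 6 was -0.02 at 12.5% (adjusted p = 0.874) and -0.20 at 25% (adjusted p = 0.0296), and the call at 25% was lost without replicate 1 or 2 of the day 6 100% libraries or replicate 1 or 3 of the 25% libraries (adjusted p 0.06 to 0.148). On day 3 it was -0.60 at 0% (SE 0.0713, adjusted p = 2.1e-07), -0.56 at 12.5% (adjusted p = 1e-06) and -0.91 at 25% (adjusted p = 3.89e-10).

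SRSF7, a shuttling SR protein that carries a zinc knuckle and links splicing to export, had 1657, 1627 and 1694 normalized counts at 0%, 2066, 1836 and 1934 at 12.5%, 1675, 1487 and 1554 at 25%, 2992, 2724 and 2681 at 50% and 2435 and 2993 at 100% on day 3. Again no library at 25% or below reached the 50% and 100% libraries of that day. On day 6 SRSF7 had 1370 and 1354 normalized counts at 12.5%, 1275, 1148 and 1116 at 25%, 1302, 1748 and 1580 at 50% and 1411, 1696 and 1680 at 100%, and its value of -0.22 at 12.5% was not called (adjusted p = 0.148). SRSF7 fell by 0.70 on the log2 scale at 0% (SE 0.106, adjusted p = 7.44e-06), by 0.47 at 12.5% (adjusted p = 0.00115) and by 0.78 at 25% (adjusted p = 3.82e-06) on day 3, and by 0.43 at 25% on day 6 (SE 0.0947, adjusted p = 0.00133). Without replicate 3 of the day 3 100% libraries the call at 12.5% was lost (log2 fold change -0.33, adjusted p = 0.0785). SRSF12, a little studied member of the family, was the gene with low values: it had 11.15 and 17.29 normalized counts at 12.5% and 51.75, 36.25 and 30.05 at 100% on day 6. It was called lower there (log2 fold change -1.40, SE 0.391, adjusted p = 0.00968), but not without replicate 1 of the 12.5% libraries (adjusted p = 0.152) or replicate 1 of the 100% libraries (adjusted p = 0.0536). On day 3 it was called lower at 0% (-1.58, adjusted p = 0.00236) and at 12.5% (-1.23, adjusted p = 0.0199), the second lost without either 100% library or replicate 1 or 2 of the 12.5% libraries (adjusted p 0.0501 to 0.13).

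SRSF10 and SRSF5 rose. SRSF10 (chr1:23964804-23980927, minus strand) encodes an SR-like protein that represses splicing when dephosphorylated, as after heat shock. Its day 6 libraries stood at 3535 and 3570 normalized counts at 12.5%, at 3878, 3401 and 3173 at 25%, at 2263, 2490 and 2473 at 50% and at 2379, 2489 and 2224 at 100%. Its libraries of day 3 stood at 2637, 2575 and 2813 at 0%, at 3966, 4057 and 3734 at 12.5%, at 3545, 3597 and 3616 at 25%, at 2553, 2289 and 2658 at 50% and at 2632 and 2524 at 100%. The 12.5% and 25% libraries of both days thus lay above those at 50% and 100% of their day, while the 0% libraries overlapped the 100% libraries. SRSF10 rose by a log2 fold change of 0.59 at 12.5% (SE 0.0777, adjusted p = 2.22e-06) and 0.56 at 25% (adjusted p = 1.1e-06) on day 6, and of 0.60 at 12.5% (adjusted p = 1.05e-06) and 0.48 at 25% (adjusted p = 4.81e-05) on day 3. At 0% it was 0.05 (adjusted p = 0.679).

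SRSF5, another SR protein, was highest where histidine was lowest. On day 3 it stood at 10240, 10520 and 10510 normalized counts at 0%, at 9556, 8998 and 8514 at 12.5%, at 7939, 7570 and 7522 at 25%, at 7147, 7433 and 7469 at 50% and at 6965 and 7167 at 100%. The 50% libraries overlapped the 100% libraries, and at 25%, 12.5% and 0% every library lay above all those of the next higher level. It rose by a log2 fold change of 0.56 at 0% (SE 0.0544, adjusted p = 5.66e-09) and 0.35 at 12.5% (adjusted p = 1.52e-05), and its value of 0.12 at 25% was not called (adjusted p = 0.138). On day 6 it had 7806 and 8252 normalized counts at 12.5%, 7028, 7341 and 6607 at 25%, 7138, 7547 and 7163 at 50% and 7005, 7100 and 6935 at 100%. The 12.5% libraries were the highest of that day and the 25% libraries overlapped those at 100%. At 12.5% this was a called rise of 0.19 (adjusted p = 0.00966) that was lost without replicate 2 of the 12.5% libraries (log2 fold change 0.15, adjusted p = 0.164).

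SRSF6, which represses and activates exons such as those of tau, had no single direction. The day 3 libraries stood at 6308, 6186 and 6581 normalized counts at 0%, at 4067, 4985 and 4446 at 12.5%, at 3546, 3637 and 3446 at 25%, at 4089, 4285 and 3902 at 50% and at 4524 and 4584 at 100%. The 0% libraries were the highest and the 25% libraries the lowest of that day, and neither overlapped the 100% libraries. SRSF6 rose at 0% (log2 fold change 0.48, SE 0.082, adjusted p = 3.96e-05) and fell at 25% (-0.36, adjusted p = 0.00187). Its day 6 libraries had 4417 and 3899 normalized counts at 12.5%, 3553, 3238 and 2939 at 25%, 3673, 4155 and 3721 at 50% and 3778, 3672 and 3442 at 100%. The 12.5% libraries lay above those at 100% and the 25% libraries overlapped them, and the log2 fold changes of 0.19 at 12.5% (adjusted p = 0.0985) and -0.17 at 25% (adjusted p = 0.12) were not called.

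The other SR genes moved by smaller amounts. SRSF11, which binds near the branch site and the U2AF proteins, rose at 0% on day 3 (log2 fold change 0.46, adjusted p = 0.00123) and at 12.5% (0.34, adjusted p = 0.0187), and at 12.5% on day 6 (0.42, adjusted p = 0.00499). Its day 3 call at 12.5% was lost without either 100% library or replicate 2 of the 12.5% libraries (adjusted p 0.0577 to 0.137), and that on day 6 without replicate 1 of the 12.5% libraries (adjusted p = 0.05). SRSF1, the prototype SR protein, rose at 12.5% and 25% on day 6 (0.32, adjusted p = 0.0057, and 0.36, adjusted p = 0.000697) and at 12.5% on day 3 (0.28, adjusted p = 0.0138), and fell at 0% (-0.27, adjusted p = 0.0135). Its call at 0% was lost without replicate 1 of the day 3 100% libraries (-0.18, adjusted p = 0.238) or replicate 2 of the 0% libraries (adjusted p = 0.0501), that at 12.5% on day 3 without replicate 3 of the 100% libraries (0.18, adjusted p = 0.243), and that at 12.5% on day 6 without replicate 2 of the 12.5% libraries (adjusted p = 0.131). SRSF9, a short SR protein, rose at 12.5% on day 3 (0.29, adjusted p = 0.0115), and SRSF8 rose at 0% (0.28, adjusted p = 0.00894). Both of these calls were lost without replicate 1 of the 100% libraries (adjusted p = 0.439 for SRSF9 and 0.112 for SRSF8). SRSF9 was at 0.12 without that library and at 0.46 without replicate 3 (adjusted p = 0.000734). At 0% on day 3 SRSF3 fell (-0.32, adjusted p = 0.00319) and SRSF4 fell (-0.24, adjusted p = 0.0127), and both calls were lost without replicate 3 of the 100% libraries (adjusted p = 0.071 for SRSF3 and 0.132 for SRSF4), that of SRSF4 also without replicate 2 of the 0% libraries (adjusted p = 0.0729). SRSF3 and SRSF4 are further described with the differences between days.

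**Figure D2:**
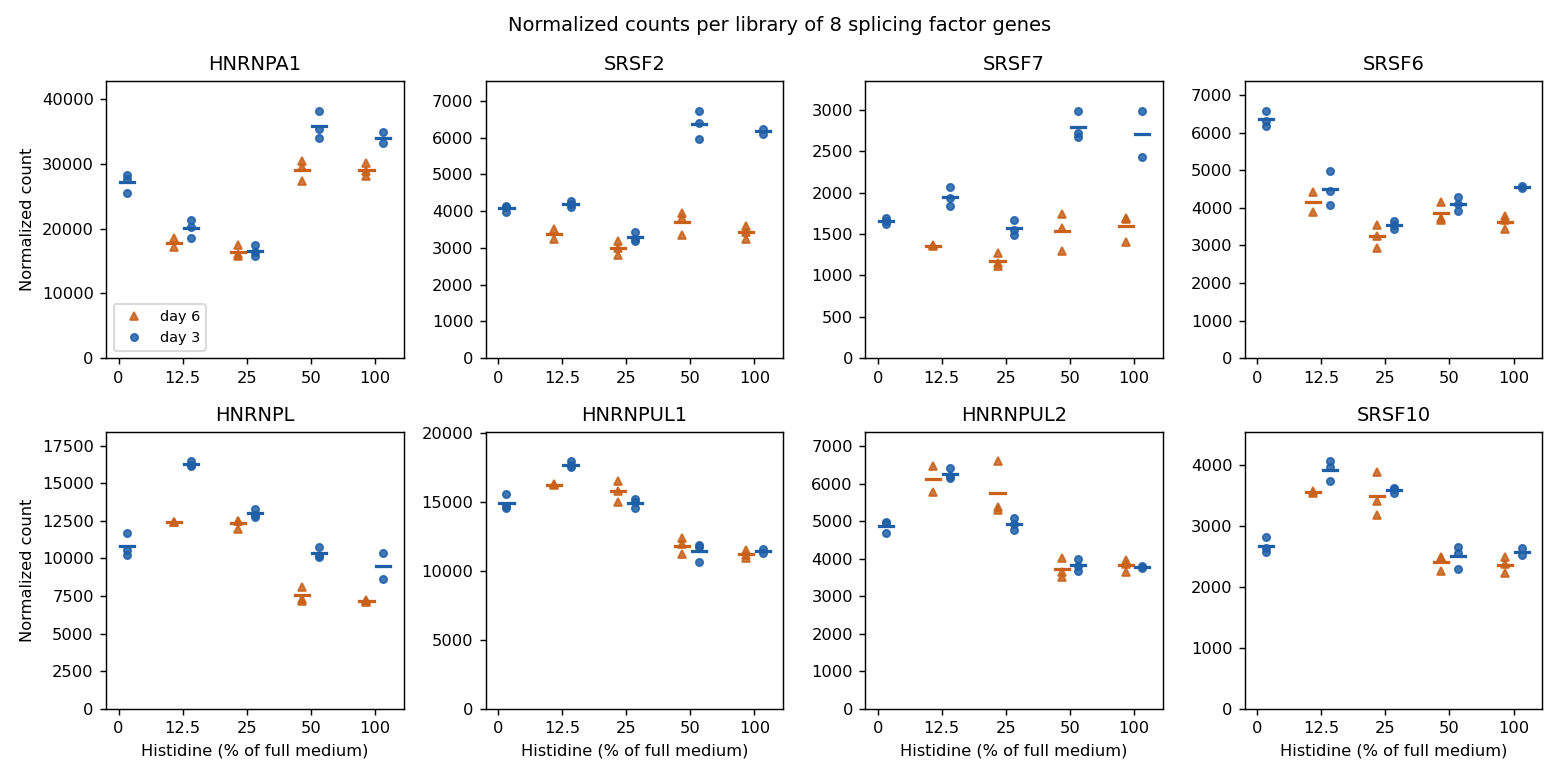
Normalized counts of 8 genes in every library (points), by histidine level along the horizontal axis, with triangles for day 6, circles for day 3 and bars for group means. HNRNPA1, SRSF2 and SRSF7 are low and HNRNPL, HNRNPUL1, HNRNPUL2 and SRSF10 are high at 12.5% and 25% histidine on day 3, while SRSF6 is highest at 0%.

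HNRNPA1 was the hnRNP gene that fell at every level from 25% down on both days. HNRNPA1 (chr12:54280193-54287088, plus strand) encodes an abundant shuttling protein that silences exons and opposes SR proteins at splice sites. The day 6 libraries stood at 17130 and 18520 normalized counts at 12.5%, at 16060, 17440 and 15740 at 25%, at 29600, 30430 and 27320 at 50% and at 29000, 30210 and 28210 at 100%. Its libraries of day 3 stood at 28350, 25480 and 27620 at 0%, at 21290, 18640 and 20210 at 12.5%, at 17500, 16460 and 15760 at 25%, at 38240, 35420 and 33980 at 50% and at 33180 and 34960 at 100%. No library at 25% or below overlapped those at 50% or 100% of its day, and the 0% libraries lay between the 12.5% and the 100% libraries. HNRNPA1 fell by 0.71 on the log2 scale at 12.5% (SE 0.0654, adjusted p = 6.73e-09) and by 0.83 at 25% (adjusted p = 5.85e-11) on day 6, and by 0.33 at 0% (adjusted p = 0.000265), by 0.77 at 12.5% (adjusted p = 1.13e-09) and by 1.04 at 25% (adjusted p = 5.55e-12) on day 3. The last is a 2.06-fold lower value, and the 5 calls held in every alternative setting. The table has 31 rows with names of HNRNPA1 copies, which share sequence with the parent, and they held 0.728% to 2.52% of the sum of parent and copies.

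The other A/B genes mostly rose, HNRNPA2B1 aside. HNRNPA0, which binds AU-rich elements of cytokine mRNAs, had 10850 and 10450 normalized counts at 12.5%, 9663, 10500 and 9319 at 25%, 8394, 8767 and 8564 at 50% and 7961, 8609 and 7988 at 100% on day 6. On day 3 it had 13030, 12720 and 12740 at 0%, 12670, 12340 and 12300 at 12.5%, 9917, 9674 and 10080 at 25%, 10260, 10120 and 10390 at 50% and 10140 and 10820 at 100%. The 25% libraries thus lay above the 100% libraries on day 6 and below them on day 3. HNRNPA0 rose by a log2 fold change of 0.38 at 12.5% (SE 0.0513, adjusted p = 3.11e-06) and 0.26 at 25% (adjusted p = 0.000112) on day 6, and of 0.29 at 0% (adjusted p = 5.73e-05) and 0.25 at 12.5% (adjusted p = 0.000526) on day 3. HNRNPA3, which binds RNA trafficking elements, rose at 12.5% and 25% on day 6 (0.39 and 0.28) and at 0% and 12.5% on day 3 (0.27 and 0.34), with adjusted p between 0.000143 and 0.00378. Without the library with heart transcripts its value at 25% on day 6 was 0.17 (adjusted p = 0.0165). HNRNPAB, a close relative of HNRNPD, rose at 12.5% and 25% on day 6 (0.46 and 0.38) and at 12.5% on day 3 (0.46), with adjusted p between 0.000407 and 0.00142. For HNRNPAB the value at 25% on day 6 was 0.23 (adjusted p = 0.0117) without the library with heart transcripts. HNRNPC, which binds uridine tracts, was not called against 100% at any level, with log2 fold changes between -0.12 and 0.10.

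The D genes bind AU-rich elements and influence mRNA decay. HNRNPD (chr4:82352498-82374503, minus strand), also known as AUF1, had 15420 and 15560 normalized counts at 12.5%, 13850, 15350 and 12500 at 25%, 11290, 11990 and 11140 at 50% and 10490, 12180 and 11330 at 100% on day 6. The day 3 libraries had 12910, 10800 and 11390 at 0%, 18730, 17800 and 19130 at 12.5%, 15300, 15200 and 16760 at 25%, 13230, 12610 and 12770 at 50% and 12700 and 14160 at 100%. Its highest libraries were those at 12.5% on day 3, and the 0% libraries of that day overlapped those at 50% and 100%. HNRNPD rose by a log2 fold change of 0.45 at 12.5% (SE 0.0776, adjusted p = 8.25e-05) and 0.29 at 25% (adjusted p = 0.00295) on day 6, and of 0.47 at 12.5% (adjusted p = 4.02e-05) and 0.23 at 25% (adjusted p = 0.0363) on day 3. The last call was lost without replicate 1 of the 100% libraries (0.15, adjusted p = 0.356) or replicate 3 of the 25% libraries (adjusted p = 0.15), and the value at 0% was -0.20 (adjusted p = 0.0506).

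The F and H genes encode proteins that bind runs of guanines. HNRNPH2 (chrX:101408295-101414133, plus strand) had 2373 and 2557 normalized counts at 12.5%, 2325, 2603 and 2090 at 25%, 1628, 1574 and 1546 at 50% and 1576, 1626 and 1452 at 100% on day 6. Its libraries of day 3 had 3204, 3046 and 3278 at 0%, 2604, 2603 and 2547 at 12.5%, 1950, 1909 and 1862 at 25%, 2114, 1982 and 2084 at 50% and 1860 and 2027 at 100%. On day 3 the libraries were highest at 0%, next at 12.5%, and overlapped between 25% and 100%. HNRNPH2 rose by a log2 fold change of 0.67 at 12.5% (SE 0.0763, adjusted p = 2.4e-07) and 0.59 at 25% (adjusted p = 3.44e-07) on day 6, and of 0.71 at 0% (adjusted p = 3.63e-08) and 0.41 at 12.5% (adjusted p = 0.000149) on day 3. The value at 25% on day 6 was 0.51 (adjusted p = 4.25e-06) without the library with heart transcripts. The table of genes also has a row for a read-through of RPL36A and HNRNPH2, so reads from the shared part are uncertain.

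HNRNPH1, the most studied of the H genes, had -0.04 at 12.5% (adjusted p = 0.733) and 0.09 at 25% (adjusted p = 0.292) on day 6, and rose at 12.5% (0.45, adjusted p = 4.16e-06) and 25% (0.24, adjusted p = 0.0074) on day 3. HNRNPF rose at 25% on day 6 (0.19, adjusted p = 0.00725) and at 12.5% (0.33, adjusted p = 5.41e-05) and 25% (0.20, adjusted p = 0.01) on day 3. HNRNPH3 rose at the same levels, by 0.20 on day 6 (adjusted p = 0.0308), where its 25% and 100% libraries overlapped, and by 0.41 (adjusted p = 0.000119) and 0.29 (adjusted p = 0.00526) on day 3. At 25% on day 3 the calls were lost without replicate 1 of the 100% libraries for HNRNPF (adjusted p = 0.112) and HNRNPH3 (adjusted p = 0.0556), without replicate 1 of the 25% libraries for HNRNPF (adjusted p = 0.0531), and without replicate 3 of the 100% libraries for HNRNPH1 (adjusted p = 0.0946). The day 6 call of HNRNPH3 was lost without replicate 1 or 3 of the 100% libraries or replicate 1 or 2 of the 25% libraries (adjusted p 0.0848 to 0.18).

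HNRNPL rose most among the 32 genes at 12.5% histidine. HNRNPL (chr19:38836388-38852347, minus strand) encodes a protein that binds CA repeats and silences exons, among them those of CD45 in T cells. Its day 6 libraries stood at 12440 and 12440 normalized counts at 12.5%, at 12520, 12520 and 11960 at 25%, at 7197, 8096 and 7320 at 50% and at 7268, 7192 and 7133 at 100%. On day 3 it stood at 11710, 10260 and 10580 at 0%, at 16170, 16190 and 16460 at 12.5%, at 12900, 12780 and 13320 at 25%, at 10760, 10120 and 10190 at 50% and at 8623 and 10350 at 100%. The 12.5% and 25% libraries lay above all others of their day, and the 0% libraries overlapped the 100% libraries. HNRNPL rose by a log2 fold change of 0.79 at 12.5% (SE 0.0642, adjusted p = 6.92e-10) and 0.78 at 25% (adjusted p = 1.4e-10) on day 6, and of 0.78 at 12.5% (adjusted p = 5.59e-10) and 0.46 at 25% (adjusted p = 5.8e-06) on day 3. Its rise of 0.20 at 0% (adjusted p = 0.0191) was lost without replicate 1 of the 100% libraries (0.07, adjusted p = 0.566) or replicate 1 of the 0% libraries (0.14, adjusted p = 0.118), and it was 0.33 without replicate 3 of the 100% libraries (adjusted p = 0.000779).

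HNRNPLL, the paralog of HNRNPL that is induced in activated T cells and also acts on CD45, did not follow it. On day 6 it had 1206 and 1217 normalized counts at 12.5%, 1262, 1229 and 1136 at 25% and 1402, 1580 and 1220 at 100%, with no call. The day 3 libraries had 899.7, 835.2 and 1072 at 0%, 1258, 1242 and 1323 at 12.5%, 1555, 1260 and 1159 at 25% and 1084 and 958 at 100%. On day 6 the 12.5% libraries lay just under the 100% libraries and the 25% libraries overlapped them, while on day 3 both lay above the 100% libraries. HNRNPLL rose at 25% on day 3 (log2 fold change 0.37, SE 0.121, adjusted p = 0.032), a call lost without replicate 3 of the 100% libraries (adjusted p = 0.296) or replicate 1 of the 25% libraries (adjusted p = 0.195).

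HNRNPK (chr9:83968083-83980616, minus strand), a KH-domain protein that binds cytidine-rich RNA and DNA, rose by small amounts with little spread. It had 18210 and 18440 normalized counts at 12.5%, 18790, 19920 and 18240 at 25%, 14630, 15890 and 14530 at 50% and 15400, 15820 and 15050 at 100% on day 6. Its libraries of day 3 had 20490, 20330 and 20430 at 0%, 21880, 20770 and 20880 at 12.5%, 20100, 20550 and 20540 at 25%, 17750, 17160 and 17680 at 50% and 17200 and 17820 at 100%. All libraries at 25% or below lay above those at 50% and 100% of their day. HNRNPK rose by a log2 fold change of 0.25 at 12.5% (SE 0.0459, adjusted p = 0.000185) and 0.30 at 25% (adjusted p = 4.43e-06) on day 6, and of 0.22 at 0% (adjusted p = 0.000402), 0.27 at 12.5% (adjusted p = 4.2e-05) and 0.22 at 25% (adjusted p = 0.000816) on day 3. Under settings described with the processing, its call at 0% was lost with quantile normalization (adjusted p = 0.0969). Its call at 25% on day 3 was lost with library position in the model (adjusted p = 0.0716). HNRNPM, which binds GU-rich RNA, rose at 12.5% and 25% on day 6 (0.47 and 0.32) and at 0% and 12.5% on day 3 (0.45 and 0.40), with adjusted p between 2.54e-05 and 0.00086, and had 0.03 at 25% on day 3 (adjusted p = 0.863).

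The U-like genes rose while HNRNPU did not. HNRNPUL1 (chr19:41262496-41307598, plus strand), which acts in transcription and at DNA breaks, had 16290 and 16190 normalized counts at 12.5%, 15810, 16550 and 15020 at 25%, 11970, 12350 and 11190 at 50% and 10910, 11160 and 11530 at 100% on day 6. On day 3 it had 14730, 14590 and 15540 at 0%, 17520, 17650 and 17940 at 12.5%, 15220, 14590 and 14980 at 25%, 10610, 11910 and 11720 at 50% and 11310 and 11590 at 100%. No library at 25% or below overlapped those at 50% or 100%. HNRNPUL1 rose by a log2 fold change of 0.54 at 12.5% (SE 0.0536, adjusted p = 2.69e-08) and 0.50 at 25% (adjusted p = 1.74e-08) on day 6, and of 0.38 at 0% (adjusted p = 2.32e-06), 0.63 at 12.5% (adjusted p = 1.13e-09) and 0.38 at 25% (adjusted p = 6.08e-06) on day 3.

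HNRNPUL2 (chr11:62712630-62727472, minus strand), its paralog at DNA breaks, had 5781 and 6484 normalized counts at 12.5%, 5394, 6598 and 5292 at 25%, 4019, 3512 and 3659 at 50% and 3872, 3981 and 3651 at 100% on day 6. The day 3 libraries had 4980, 4957 and 4693 at 0%, 6410, 6165 and 6208 at 12.5%, 4772, 4937 and 5099 at 25%, 3811, 4004 and 3669 at 50% and 3755 and 3815 at 100%. Its restricted libraries also stayed clear of those at 50% and 100%. HNRNPUL2 rose by a log2 fold change of 0.68 at 12.5% (SE 0.0774, adjusted p = 2.54e-07) and 0.58 at 25% (adjusted p = 5.29e-07) on day 6, and of 0.37 at 0% (adjusted p = 0.000529), 0.73 at 12.5% (adjusted p = 5.3e-08) and 0.38 at 25% (adjusted p = 0.000613) on day 3. Without the library with heart transcripts, the highest at 25% on day 6, the value there was 0.48 (adjusted p = 3.41e-06). The table holds a separate row for a read-through of HNRNPUL2 and BSCL2, so the split of shared reads is uncertain. HNRNPU, a nuclear matrix protein that binds chromatin and RNA, was not called at any level, with log2 fold changes between -0.12 and 0.11. HNRNPR, which binds axonal and other mRNAs, fell at 0% (-0.17, adjusted p = 0.036) and 25% on day 3 (-0.43, SE 0.0606, adjusted p = 6.4e-06) and had -0.09 at 25% on day 6 (adjusted p = 0.293). Its call at 0% was lost without either 100% library or replicate 2 of the 0% libraries (adjusted p 0.0609 to 0.233).

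Most of these calls held under the alternative settings, which are described with the processing. On day 6, 14 of 18 calls at 12.5% and 12 of 21 at 25% held in every one. On day 3, 13 of 20 held at 0%, 17 of 23 at 12.5% and 10 of 19 at 25%. The calls that held in all 5 comparisons in which the gene was called were those of HNRNPA1, HNRNPUL1 and HNRNPUL2.

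Complete withdrawal of histidine differed from restriction to 12.5% on day 3. Of the 32 genes, 6 were higher and 13 lower at 0% than at 12.5%, where 21% of all tested genes (8.5% higher, 12.5% lower) and 42.1% of those averaging at least 1000 normalized counts (18.8% higher, 23.3% lower) were called. The median over the members was -0.14 against 0.02 over all tested genes. HNRNPD fell most, by 0.67 on the log2 scale at 0% against 12.5% (SE 0.0694, adjusted p = 3.79e-08), followed by HNRNPL, which fell by 0.59 (adjusted p = 1.12e-08), and by SRSF1 and SRSF10, which both fell by 0.55 (adjusted p = 3.11e-06 and 9.17e-07). HNRNPH1, HNRNPH3 and HNRNPF of the H/F group fell by 0.32, 0.39 and 0.31, HNRNPUL1 by 0.24, HNRNPUL2 by 0.36, HNRNPLL by 0.45 (adjusted p 3.67e-05 to 0.00283), and HNRNPAB, HNRNPC and SRSF3 fell by 0.30, 0.20 and 0.37. In the other direction SRSF6 rose by 0.50 (adjusted p = 8.41e-06), HNRNPA1 by 0.44 (adjusted p = 2.29e-06), SRSF8 by 0.32 (adjusted p = 0.00175), HNRNPH2 by 0.30 (adjusted p = 0.002), HNRNPDL by 0.26 (adjusted p = 0.00598) and SRSF5 by 0.21 (adjusted p = 0.00216).

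Thus HNRNPA1, lower at 12.5% than at 100%, was higher at 0% than at 12.5%, and HNRNPD, HNRNPL and SRSF10, higher at 12.5% than at 100%, were lower at 0% than at 12.5%. The 12.5% libraries enter both differences, so a deviation in them would move the pair in opposite directions. Of the 19 calls, 14 held in every alternative. Those of HNRNPAB, HNRNPC, HNRNPH2, SRSF3 and SRSF5 were lost with library position in the model (adjusted p 0.0759 to 0.364), and that of HNRNPC also without replicate 1 of the 12.5% libraries (adjusted p = 0.0509).

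**Figure D3:**
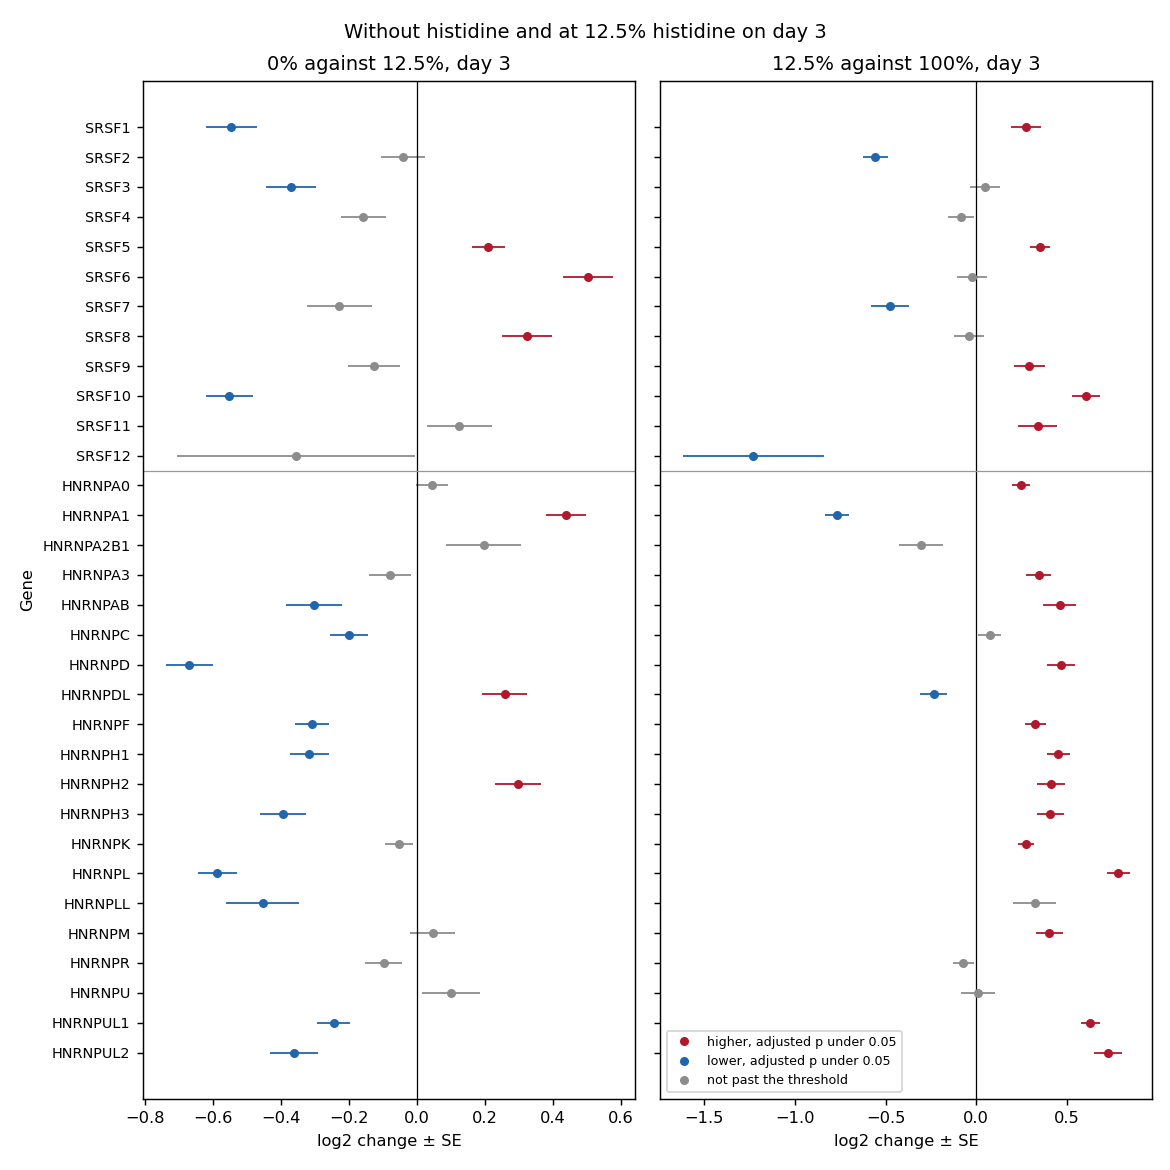
Log2 fold change of the members on day 3 in 0% against 12.5% histidine (left) and in 12.5% against 100% (right), with standard errors as bars, in red where called higher, blue where called lower and grey where not called. HNRNPA1 is at 0.44 on the left and -0.77 on the right, and HNRNPD is at -0.67 on the left and 0.47 on the right.

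Between 12.5% and 25% histidine more members were called on day 3 than on day 6, and this difference between days was not tested. The median over the members was 0.24 on day 3 and 0.08 on day 6, where the 12.5% group had 2 libraries. On day 3, 21 members were called higher and 0 lower at 12.5% than at 25%, where 8.22% of all tested genes were called (5.41% higher, 2.81% lower) and 22.2% of those averaging at least 1000 normalized counts, 19% higher and 3.15% lower. The largest were SRSF3 with 0.45 (adjusted p = 0.000239), HNRNPH2 with 0.44 (adjusted p = 0.000141), HNRNPM with 0.38 (adjusted p = 0.000571) and HNRNPR with 0.36 (adjusted p = 8.93e-05). This comparison moved with the settings: 13 members were called higher with total-sum scaling (each library rescaled to the median total), 10 with quantile normalization and 4 (HNRNPA0, HNRNPH2, HNRNPR and SRSF2) with library position (library number modulo 8) in the model. Whether that number stands for any technical difference is not given in the labels. Leaving out 1 library of the compared groups gave between 13 and 18. Of all tested genes, 1232 were called with quantile normalization and 238 with library position, in place of 1889, in either direction. On day 6, 1 member was called higher at 12.5% than at 25% and 0 lower, where 0.874% of all tested genes were called (0.204% higher, 0.67% lower), and 9 had an unadjusted p under 0.05. It was SRSF6, with 4417 and 3899 normalized counts at 12.5% and 3553, 3238 and 2939 at 25% (log2 fold change 0.36, SE 0.082, adjusted p = 0.0274). That call was lost without any 1 of replicates 2 and 3 of the 25% libraries or replicates 1 and 2 of the 12.5% libraries (adjusted p 0.0549 to 0.49).

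At full histidine many members were lower on day 6 than on day 3. Of the 32, 1 was higher and 19 lower on day 6, where 8.66% of all tested genes were called (2.93% higher, 5.73% lower), and 24% of those averaging at least 1000 normalized counts, 4.95% higher and 19.1% lower. HNRNPDL (chr4:82422564-82430408, minus strand), an AU-rich element binder like HNRNPD, had 3637, 4466 and 3688 normalized counts on day 6 and 8193 and 8574 on day 3, a fall of 1.10 on the log2 scale (SE 0.0751, adjusted p = 1.82e-10). SRSF2 fell by 0.85 (adjusted p = 6.03e-09), SRSF3 by 0.82 (adjusted p = 1.29e-07), SRSF7 by 0.76 (adjusted p = 2.29e-05), HNRNPL by 0.39 (adjusted p = 0.000193), HNRNPA0 by 0.36 (adjusted p = 3.56e-05) and HNRNPR by 0.36 (adjusted p = 0.000266), and these 7 calls held in every alternative. Without replicate 3 of the day 3 libraries HNRNPL was at -0.26 (adjusted p = 0.0424). HNRNPLL was the member that rose (0.45, adjusted p = 0.0176).

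The other 13 calls between days were lost in at least 1 alternative. Without replicate 3 of the day 3 100% libraries all 13 were lost (adjusted p 0.0766 to 0.506), which leaves 1 library on day 3 that is taken to vary like the other groups. Total-sum scaling moved the median of all genes to 0.135 and left 3 members higher and 9 lower, and quantile normalization left 4 higher and 10 lower. These member counts were not compared with the share of all tested genes called under the same scaling. Under quantile normalization HNRNPA1 was at 0.0501 (adjusted p = 0.651) and HNRNPK at 0.0119 (adjusted p = 0.934), where the deposited scaling gave -0.23 and -0.18, so their direction rests on the scaling. HNRNPA1 was also no longer called without replicate 1 of the day 3 libraries (adjusted p = 0.0508) or without replicate 1 or 3 of the day 6 libraries (adjusted p = 0.0781 and 0.105).

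The response to 25% histidine differed between days for 10 of the 32 genes, where 4.72% of all tested genes (2.71% higher, 2.01% lower) and 12.8% of those averaging at least 1000 normalized counts (8.59% higher, 4.21% lower) were called in the same test of the difference. In 9 of them the effect was more positive on day 6 than on day 3. HNRNPA2B1 (chr7:26173057-26201529, minus strand), a shuttling protein that also sorts RNAs and reads modified RNA, had 11030, 13620 and 11300 normalized counts at 25% and 8242, 7612 and 8556 at 100% on day 6. Its libraries of day 3 had 7579, 10350 and 8401 at 25% and 11920 and 11000 at 100%. The 25% libraries lay above the 100% libraries on day 6 and below them on day 3. HNRNPA2B1 rose by 0.55 on day 6 (SE 0.11, adjusted p = 0.000909) and fell by 0.40 on day 3 (adjusted p = 0.0269), and the difference was 0.95 (SE 0.165, adjusted p = 0.00126). Without the library with heart transcripts the day 6 value was 0.46 (adjusted p = 0.00837). The day 3 call was lost without replicate 1 or 3 of the 100% libraries or replicate 1 or 3 of the 25% libraries (adjusted p 0.0722 to 0.19).

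HNRNPDL had 4689, 4891 and 4464 normalized counts at 25% and 3637, 4466 and 3688 at 100% on day 6, against 5875, 6591 and 5897 at 25% and 8193 and 8574 at 100% on day 3. On day 3 the 25% libraries lay below the 100% libraries, and on day 6 only the lowest of them overlapped the 100% libraries. Its log2 fold change was 0.26 on day 6 (adjusted p = 0.00626), where the libraries overlapped, and -0.46 on day 3 (adjusted p = 5.53e-05), a difference of 0.71 (SE 0.101, adjusted p = 4.45e-05). The day 6 call was lost without replicate 1 of the 100% libraries (adjusted p = 0.0554). SRSF3, the smallest SR protein and a shuttling export adaptor, had 5563, 6034 and 5244 normalized counts at 25% and 4320, 4820 and 4609 at 100% on day 6, against 6169, 6193 and 5962 at 25% and 7750 and 8409 at 100% on day 3. It rose by 0.29 on day 6 (adjusted p = 0.00469) and fell by 0.40 on day 3 (adjusted p = 0.000656), a difference of 0.69 (SE 0.11, adjusted p = 0.000196).

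SRSF4, a large SR protein, rose by 0.18 on day 6 (adjusted p = 0.0494) and fell by 0.30 on day 3 (adjusted p = 0.00365), a difference of 0.49 (adjusted p = 0.00299). Its day 6 call was lost in 11 of 15 alternatives, among them the removal of any library of the day 6 100% group and of replicate 1 or 2 of the 25% group, and its day 3 call without replicate 3 of the 100% libraries (adjusted p = 0.0664). SRSF2 differed by 0.71 (adjusted p = 2.31e-05), with a smaller fall on day 6, HNRNPH2 by 0.61 (adjusted p = 0.00037), HNRNPA0 by 0.35 (adjusted p = 0.0025), HNRNPR by 0.34 (adjusted p = 0.0115) and HNRNPL by 0.32 (adjusted p = 0.0304). HNRNPLL alone differed in the other direction, by -0.57 (adjusted p = 0.039). The differences of SRSF2, SRSF3, HNRNPA0, HNRNPA2B1, HNRNPDL and HNRNPH2 held in every alternative. That of HNRNPR was lost without replicate 3 of the day 3 100% libraries (adjusted p = 0.0763), that of HNRNPL without any of 8 libraries taken singly (adjusted p 0.0511 to 0.319) and that of HNRNPLL without any of 6 (adjusted p 0.054 to 0.201).

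The response to 12.5% histidine differed between days for 4 members, where 3.64% of all tested genes (1.28% higher, 2.36% lower) and 9.93% of those averaging at least 1000 normalized counts (3.54% higher, 6.4% lower) were called. HNRNPDL rose by 0.45 at 12.5% on day 6 (adjusted p = 5.89e-05) and fell by 0.23 on day 3 (adjusted p = 0.0212), a difference of 0.68 (SE 0.106, adjusted p = 0.00026). Its day 3 call was lost without either of the 100% libraries or replicate 2 of the 12.5% libraries (adjusted p 0.0531 to 0.16). SRSF2 differed by 0.53 (adjusted p = 0.0024) and HNRNPH1 by -0.49 (adjusted p = 0.00167). HNRNPA2B1 differed by 0.65 (adjusted p = 0.0418), a call that 12 of 19 alternatives ended (adjusted p 0.0511 to 0.223), among them the removal of either day 3 100% library, any day 6 100% library, replicate 1 or 2 of the day 3 12.5% group or replicate 2 of the day 6 12.5% group. SRSF3, at 0.36 on day 6 and 0.05 on day 3, was not shown to differ (difference 0.31, adjusted p = 0.161).

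**Figure D4:**
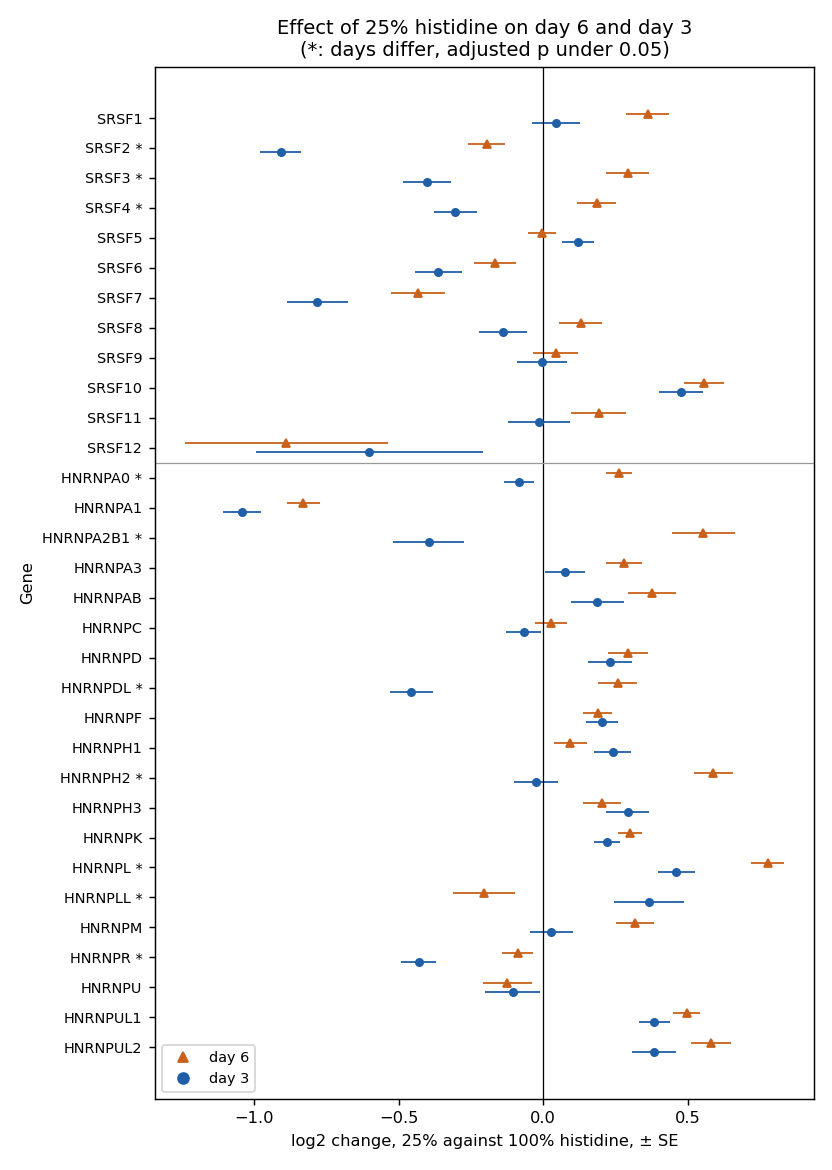
Log2 fold change of each member at 25% against 100% histidine on day 6 (triangles) and on day 3 (circles), with standard errors as bars and an asterisk where the days differ. HNRNPA2B1, at 0.55 on day 6 and -0.40 on day 3, has the widest gap.

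The wider splicing machinery was followed in 4 lists of genes, whose counts are to be read against the shares of all tested genes called higher and lower in the same comparisons, given with the counts of the 32 genes. Of 11 genes for SR kinases, a phosphatase regulatory subunit and an import receptor, 2 rose and 2 fell at 12.5% (median log2 fold change 0.21) and 2 rose and 2 fell at 25% (median 0.20) on day 6. On day 3, 2 rose and 5 fell at 0% (median -0.21), 2 rose and 3 fell at 12.5% (median -0.24) and 1 rose and 3 fell at 25% (median -0.17). SRPK1 and SRPK2, the cytoplasmic kinases that phosphorylate SR proteins for import, fell by 0.68 (adjusted p = 2.54e-07) and 0.87 (adjusted p = 1.21e-09) at 12.5% on day 6 and by 0.87 (adjusted p = 1.36e-09) and 0.89 (adjusted p = 2.71e-10) at 0% on day 3. CLK3, a nuclear kinase of SR proteins, rose by 0.48 (adjusted p = 0.000462) at 12.5% on day 6 and by 0.54 (adjusted p = 7.5e-05) at 0% on day 3. These 3 were the called genes of the list with the smallest p, and a contrast between the SRPK and CLK families was not tested. The largest rises in the list, 0.75 at 12.5% on day 6 and 0.77 at 0% on day 3, were not those of CLK3.

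Of 25 SR-related and speckle proteins, 15 rose and 0 fell at 12.5% (median 0.39) and 12 rose and 0 fell at 25% (median 0.35) on day 6. On day 3, 8 rose and 4 fell at 0% (median 0.19), 8 rose and 3 fell at 12.5% (median 0.096) and 3 rose and 7 fell at 25% (median -0.12), so the balance at 25% lay in opposite directions on the 2 days, which was not tested. U2AF1 and U2AF2, which together recognise the 3' splice site, rose by 0.73 (adjusted p = 4.23e-09) and 0.57 (adjusted p = 4.54e-08) at 12.5% on day 6 and by 0.63 (adjusted p = 2.09e-08) and 0.53 (adjusted p = 6.64e-08) at 0% on day 3. TRA2A, a splicing activator related to the SR proteins, rose by 0.94 (adjusted p = 5.38e-09) and 0.61 (adjusted p = 2.86e-06) in the same 2 comparisons.

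Of 31 tested genes among 32 other hnRNP family and related RNA-binding proteins, 15 rose and 4 fell at 12.5% (median 0.19) and 10 rose and 7 fell at 25% (median 0.12) on day 6. The day 3 counts were 10 up and 6 down at 0% (median -0.021), 11 up and 4 down at 12.5% (median 0.13) and 3 up and 6 down at 25% (median 0.0065). PSPC1, a paraspeckle protein, fell by 0.98 (adjusted p = 2.8e-08) at 12.5% on day 6 and by 1.00 (adjusted p = 6.84e-09) at 0% on day 3. At 12.5% on day 6 PCBP1, a KH-domain relative of HNRNPK, rose by 0.44 (adjusted p = 5.85e-06) and RALY, a relative of HNRNPC, rose by 0.54 (adjusted p = 7.2e-05). At 0% on day 3 CIRBP, the cold-inducible RNA-binding protein, rose by 0.78 (adjusted p = 3.72e-08) and RBMX, also named hnRNP G, fell by 0.55 (adjusted p = 1.22e-07).

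Of 52 snRNP and core spliceosome proteins, 22 rose and 4 fell at 12.5% (median 0.21) and 17 rose and 5 fell at 25% (median 0.17) on day 6. The day 3 counts were 16 up and 10 down at 0% (median 0.065), 21 up and 7 down at 12.5% (median 0.21) and 8 up and 14 down at 25% (median -0.069). At 12.5% on day 6 SF3B2 and PRPF3, subunits of the U2 and U4/U6 particles, rose by 0.66 (adjusted p = 4.8e-09) and 0.91 (adjusted p = 5.35e-09) and SNRPD2, a protein of the Sm core, fell by 0.78 (adjusted p = 8.12e-07). At 0% on day 3 SNRPA1 and SNRPA, proteins of the U2 and U1 particles, fell by 0.77 (adjusted p = 2.57e-07) and 0.72 (adjusted p = 2.67e-07) and BUD31, an activated spliceosome protein, rose by 0.68 (adjusted p = 6.18e-07). In the 5 comparisons of 25% or less with 100%, the share called lay between 36.4% and 63.6% for the kinases, 40% and 60% for SR-related proteins, 29% and 61.3% for the other RNA-binding proteins and 42.3% and 53.8% for the spliceosome proteins. Genes averaging at least 1000 normalized counts were called at 44.1% to 58.3%. Each list was above such genes in part of the 5 comparisons and below them in the rest. The other RNA-binding proteins were at 29% against 44.1% at 25% on day 3. At 12.5% on day 6 they were at 61.3% against 48.3%. How many genes of these 4 lists reach that level was not counted, and these gaps were not tested. The share of the 32 members was above that of the genes at this level in each of the 5 comparisons, and that gap was not tested. For the hnRNP genes alone the share was below it at 0% on day 3, at 50% against 58.3%.

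**Figure D5:**
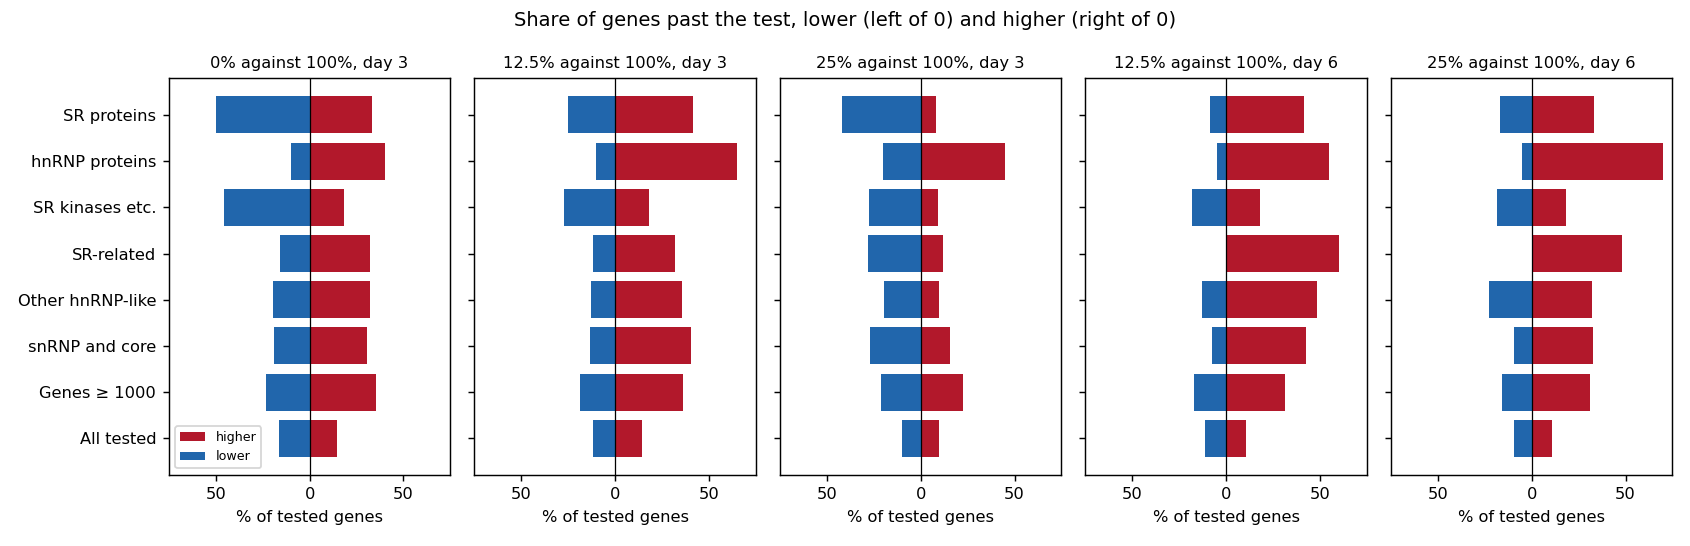
Percent of genes called in 5 comparisons with 100% histidine, lower to the left of 0 and higher to the right, so that the length of both bars is the percent called, for the SR genes, the hnRNP genes, the 4 further lists, all tested genes averaging at least 1000 normalized counts and all 22994 tested genes. The totals run between 29%, for the other RNA-binding proteins at 25% on day 3, and 83.3%, for the SR genes at 0%, beside 44.1% to 58.3% of the genes at 1000 or more and 19.5% to 31% of all tested genes.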

How the data were processed

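RNA from 25 Jurkat libraries was sequenced from strand-specific libraries made from total RNA, per the labels' protocols. The authors deposited 1 table of normalized gene counts, a signal per gene and library that is no longer a whole number of reads. Per the submitters' processing notes, FastQC 0.11.9, kallisto 0.50.1, DESeq2 1.44.0 and GRCh38 were used. Whether strand was used in counting is not given in the sources used here. Of the low values, 55.6% to 75.4% per library lay near whole multiples of 1 step. Whole reads could thus not be recovered for every value, and depth was not estimated. No count model was run and precision rests on the replicates. Low genes are understated on the log scale.

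From the deposited signal, genes at 10 or more in at least 2 libraries were kept (22994) and log2(value + 1) was fitted with limma 3.58.1 (R 4.3.3, statmod 1.5.0), with an intensity trend, robust variances and a mean for each group. The two-sided p-values of each comparison received Benjamini-Hochberg adjustment over the kept genes, with a threshold of 0.05. The script was tested on simulated data. Alternatives were pseudocounts of 0.5 and 10, no filter, total-sum and quantile scaling, a replicate block, library position (library number modulo 8), only the compared groups, and leaving out libraries. The library number counts the samples as they are listed, by day and histidine level. No label ties it to an order of processing, a plate, lane or batch.

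The members, the lists and the alternatives were chosen with earlier results of these data known. Values in every library are given for the 12 members with the smallest p over the comparisons with 100%. Those of SRSF3, SRSF7, SRSF12, HNRNPA2B1, HNRNPDL and HNRNPLL were added after their values were seen, as was the background of genes averaging at least 1000. Of each other list, up to 3 called genes with the smallest p are named.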

Additional observations from a re-analysis of the deposited data

Results flagged for a closer look

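For 10 of the 32 genes the effect of 25% histidine differed between day 6 and day 3 in the test of the difference itself, which is given here as the day 6 effect minus the day 3 effect on the log2 scale. It was 0.71 for SRSF2, 0.69 for SRSF3, 0.49 for SRSF4, 0.35 for HNRNPA0, 0.95 for HNRNPA2B1, 0.71 for HNRNPDL, 0.61 for HNRNPH2, 0.32 for HNRNPL, 0.34 for HNRNPR and -0.57 for HNRNPLL. For the effect of 12.5% histidine it was 0.53 for SRSF2, 0.65 for HNRNPA2B1, 0.68 for HNRNPDL and -0.49 for HNRNPH1. All 9 members with a positive difference of the 25% effect were also called lower on day 6 than on day 3 at full histidine, and HNRNPLL, with the negative one, was called higher. The 100% libraries enter both, so each difference goes with a shift of those shared libraries in the opposite direction.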

How the results depend on the processing

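Of 6112 alternative values of 416 member results, 5494 kept their direction and their side of the threshold, 264 changed sign without a call on either side, 302 lost a call, 49 gained one and 3 changed sign with a call on at least 1 side. Those 3 were in day 6 against day 3 under quantile normalization, with HNRNPA1 at 0.0501 (adjusted p = 0.651), HNRNPK at 0.0119 (adjusted p = 0.934) and HNRNPUL1 at 0.19 (adjusted p = 0.0128, against -0.03, not called, as deposited). The cause was not tested for any change given here, but library position leaves fewer residual degrees of freedom and leaving out libraries leaves fewer samples. Depth was not estimated, and the number of libraries limits precision.

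With library position in the model, the genes called over all tested were 4725 in place of 7123 at 0% on day 3, 2350 in place of 4490 at 25% on day 3, 3012 in place of 4645 at 25% on day 6, 0 in place of 1 at 50% on day 6, 2723 in place of 4818 between 0% and 12.5%, 238 in place of 1889 between 12.5% and 25% on day 3, 32 in place of 201 on day 6, 720 in place of 1991 between days, and 407 in place of 1086 and 549 in place of 836 for the differences of the 25% and 12.5% effects. Members lower were 4 in place of 8 at 0% on day 3, 1 in place of 2 at 12.5% on day 6, 7 in place of 19 between days and 0 in place of 1 for the 25% difference. Members higher were 6 in place of 10 at 25% on day 3, 4 in place of 21 and 0 in place of 1 between 12.5% and 25% on day 3 and day 6, and 0 in place of 1 between days.

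Quantile normalization gave 6 members lower at 25% on day 6, 1232 genes and 10 members higher between 12.5% and 25% on day 3, 4 members higher and 10 lower between days, and 3 lower for the 25% difference. Total-sum scaling, which moved the median of all genes to 0.135 between days and to -0.1 for the 25% difference, gave 13 members higher between 12.5% and 25% on day 3 and 2 on day 6, 3 higher and 9 lower between days, and 3 lower for the 25% difference. Under quantile normalization the median of all tested genes was 0.00203 at 25% on day 6 and -0.00926 for the 25% difference. Apart from the 1232 genes, the genes called over all tested under these scalings are not given here. Whether the members moved with the other genes under them was not tested. With only the compared groups, 5 genes were called at 50% on day 3, 8 at 50% on day 6, 13 between 12.5% and 25% on day 6 with 0 members, and 0 members lower for the 25% difference. Without the 3 day 6 libraries together (100% and 50% replicate 3, 25% replicate 2), 11 members were higher at 25%, 0 genes were called at 50%, 103 between 12.5% and 25% with 0 members, and 2 members were lower for the 12.5% difference.

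Leaving out 1 library at a time gave 5426 to 6593 genes, 10 to 13 members higher and 5 to 9 lower at 0% on day 3, 4435 to 5489, 16 to 18 and 2 to 5 at 12.5%, 2954 to 3934, 7 to 10 and 7 to 9 at 25%, and 0 to 5 genes at 50%. On day 6 it gave 3181 to 4418 genes, 14 to 18 members higher and 1 to 2 lower at 12.5%, 3682 to 4241, 15 to 18 and 2 to 4 at 25%, and 0 to 17 genes at 50%. It gave 4066 to 4238 genes, 6 members higher and 12 to 14 lower between 0% and 12.5%, 1138 to 1452 genes and 13 to 18 members higher between 12.5% and 25% on day 3, 74 to 321 and 0 to 1 on day 6, 588 to 1875 genes, 0 to 1 higher and 7 to 18 lower between days, 669 to 1057, 7 to 10 and 0 to 1 for the 25% difference, and 381 to 764, 2 to 3 and 1 to 2 for the 12.5% difference.

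Over 16 pairs of a restricted and a 100% library with the same replicate number, the correlation of their deviations was -0.0389 to 0.192. The 1 pair over 0.1 was replicate 3 at 50% on day 6. Pairs between other groups were not examined, so whether the replicate numbers pair the libraries was not settled. With the replicate block 7002 genes were called at 0% on day 3 and 9 members were higher at 25% on day 3, and the block moved no count by over 1.5 times.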
